A study of Mus musculus with 9 samples.

Results

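The genes described here are 39 mouse genes of the glutathione, peroxiredoxin, thioredoxin and superoxide-clearing enzymes, taken by symbol from a given gene list. Of the 39, 37 had a row among the 22851 genes of the deposited count matrix, and Gsto1 and Gpx8 were not analysed here. By role they were 12 glutathione S-transferases, 4 glutathione peroxidases, 4 genes of glutathione synthesis and reduction, 7 peroxiredoxin and sulfiredoxin genes, 4 thioredoxin and thioredoxin reductase genes, 4 genes of superoxide dismutases and catalase, and the regulators Nfe2l2 and Keap1. In each comparison with all 6 libraries 34 of the 37 passed the filter on low counts, whereas Gsta3, Gstp1 and Gss did not.

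Glutathione is a small thiol that cells hold at high concentration. Glutamate-cysteine ligase carries out the limiting step of its synthesis, glutathione peroxidases spend it on hydrogen peroxide and lipid peroxides, glutathione S-transferases join it to reactive compounds, and glutathione reductase recovers it with NADPH. Peroxiredoxins remove peroxides with electrons from thioredoxin and its reductases, superoxide dismutases turn superoxide into hydrogen peroxide, and catalase breaks hydrogen peroxide down. The transcription factor NRF2, encoded by Nfe2l2 and held back by KEAP1, switches on many of these genes through a DNA element called the antioxidant response element. The heart is rich in mitochondria, a main source of superoxide, and oxidative stress in diabetic heart muscle is a long-studied subject.

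RNA of heart muscle was sequenced in 9 libraries of male mice (C57BL/6 in the labels, C57BL/6J in the methods), which were several weeks old when treatment began. The CK group (3 libraries) was the control and received citrate buffer, and the DCM group (3 libraries) received a single injection of streptozotocin, a toxin of insulin-producing beta cells, and was studied 12 weeks later as a model of type 1 diabetes with cardiomyopathy. The SPM group (3 libraries) received the same streptozotocin and, before and after it, repeated injections of spermine, a polyamine, so that SPM compared to DCM asks what spermine added, and no group received spermine alone. The methods describe a library both as 1 mouse and as a pool of hearts, so the p-values measure the spread between these libraries. The extraction protocol in the labels speaks of retinas, but all 6 cardiomyocyte markers with a row reached 1 CPM (normalized counts scaled to equal library totals), with a summed level of 35390 to 48230 CPM per library, whereas none of the 7 retina markers with a row did.

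The CK libraries had total counts of 29901300 to 33990348, the DCM libraries of 30556114 to 39718680 and the SPM libraries of 31472566 to 33444305, and mitochondrial genes held 13.7% to 16.2%, 15.5% to 18.9% and 21.0% to 21.1% of them. SPM replicate 2 was close to a mixture of the other SPM libraries. With 44.9% of replicate 1 and the remainder from replicate 3, its median squared deviation was 0.40 times the counting variance, where counting error alone gives 0.455, and the lowest value among the rest of the 252 combinations tested was 1.22. Calls of the main test, edgeR's, that rest on SPM are therefore given with and without replicate 2 for the members. The values of DESeq2 and limma, run as alternatives, include replicate 2 and were not repeated without it. Fold changes moved with the GC content of the transcript, with a Spearman coefficient across genes of 0.06 in DCM compared to CK, -0.50 in SPM compared to DCM and -0.37 in SPM compared to CK (over 14392, 14484 and 14564 genes, a description, since genes share their libraries). The tested members had a median GC content of 50.2%, beside 49.7% to 49.8% for all genes tested. In bulk tissue, fewer cells of a type and less RNA per cell cannot be told apart.

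Among the tested members, transcript levels compared per length as FPKM spanned from Gpx4, which removes lipid peroxides, at 716 ± 39.9 in CK (mean ± SD, n = 3), down to the mitochondrial thioredoxin reductase Txnrd2 at 1.94 ± 1.46. Next after Gpx4 came Mgst3 (346 ± 26.2), a membrane-bound glutathione transferase, the secreted peroxidase Gpx3 (324 ± 22.7), Gstm1 (248 ± 26.7) and the peroxiredoxin Prdx5 (228 ± 12.0). Mgst3 and Gpx3 did not differ beyond their spread, nor did Gstm1 and Prdx5. At the lower end stood the catalytic and modifier subunits of glutamate-cysteine ligase, Gclc at 5.01 ± 0.370 and Gclm at 2.07 ± 0.240, beside Txnrd2. Gss had 0 to 13 reads and Gstp1 0 to 16 reads in a library, although glutathione synthetase is used by most cells, so no level was read from either row. Exact stretches of 50 bases are shared with other genes or pseudogenes over 62.3% of the Gstp1 transcript (Gstp2), 61.7% of Gpx4 (Gpx4-ps2), 29.7% of Prdx5 (Trmt112), 23.8% of Prdx2, 23.1% of Gstm1 and 23.1% of Sod1 (Gm8566). How such reads were counted is not given in the sources used here, and the levels of these 6 genes are uncertain for that reason.

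The core of the antioxidant response element, TGACNNNGC, was searched on both strands of the RefSeq promoter windows of GRCm38.p6, which run from 250 bases before to 50 bases after a start site. It was found for 10 of the 33 members with a window, beside 3781 of all 27025 genes with one (14.0%). The 10 were Gclm, Gsta3, Gstm5, Gstm7, Mgst1, Nfe2l2, Prdx1, Sod1, Srxn1 and Txnrd1. A match is a string of letters and not a shown binding site. The 5 windows below belong to members that passed the test in at least 1 comparison and have the match before the start site of that window. Each is given 5′ to 3′ on the strand of its gene with 40 bases on either side, and the capitals mark the match, which reads GC first where it lies on the opposite strand.
Gclm, chr3:122245383-122245471, plus strand: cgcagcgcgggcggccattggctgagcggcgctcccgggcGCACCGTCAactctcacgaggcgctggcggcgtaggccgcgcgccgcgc
Mgst1, chr6:138140431-138140519, plus strand: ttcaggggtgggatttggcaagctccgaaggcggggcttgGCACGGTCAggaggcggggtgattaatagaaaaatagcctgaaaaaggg
Gstm7, chr3:107931695-107931783, minus strand: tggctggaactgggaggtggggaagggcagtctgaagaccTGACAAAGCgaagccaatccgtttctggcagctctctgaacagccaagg
Sod1, chr16:90220666-90220754, plus strand: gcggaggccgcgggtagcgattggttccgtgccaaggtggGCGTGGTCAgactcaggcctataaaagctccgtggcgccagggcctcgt
Prdx1, chr4:116685426-116685514, plus strand: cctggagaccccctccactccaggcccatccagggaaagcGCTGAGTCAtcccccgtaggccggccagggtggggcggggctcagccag
The match ended 126 bases before the start site of the window in Gclm, 48 in Mgst1 and Sod1, 121 in Gstm7 and 125 in Prdx1. For Gstm7 this was window 2 of the gene. In GENCODE M21, Gstm7 begins at 107931817 (minus strand) and Mgst1 at 138140316 (plus strand). Both printed stretches therefore lie inside the annotated gene.

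In DCM compared to CK, the members that changed were mostly transferases and peroxide-clearing enzymes, and nearly all of them were higher. With edgeR's quasi-likelihood test, 11 of the 34 tested members rose and 1 fell at a Benjamini-Hochberg adjusted p below 0.05, beside 5.28% of all 14402 genes tested that rose and 5.11% that fell. The 11 were Gsta4, Gstm1, Gstm7, Gstt1, Gstt2, Mgst1, Mgst3, Gpx3, Gclc, Sod1 and Cat, and the one that fell was Txnrd2. Rises were small, with log2 fold changes of 0.28 to 0.55. Only Txnrd2 also passed a fold change of 1.5, the limit for a differentially expressed gene (DEG), which 2.03% of all genes passed upward and 2.31% downward. Of the 34, 28 had a log2 fold change above 0, with a median of 0.17 beside -0.0025 for all genes. Gstm1, Mgst1, Mgst3, Sod1 and Cat kept an adjusted p below 0.05 under all alternatives run for this comparison, whereas the number of changed members was 5 without DCM replicate 2, 6 without CK replicate 2 and 7 without CK replicate 3.

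In SPM compared to DCM, the direction over the members was mostly the opposite, and the calls depended on single libraries. Of the 34 tested members, 1 rose (Prdx1) and 10 fell (Gsta4, Gstm2, Gstm7, Gstk1, Gstt1, Gpx7, Gclm, Prdx5, Txn2 and Srxn1), beside 8.87% and 7.76% of the 14493 genes tested. Gclm and Srxn1 were DEGs, where 2.70% of all genes were higher and 0.890% lower by that limit. Of the 34, 26 had a log2 fold change below 0, with a median of -0.17 beside 0.0057 for all genes. Without SPM replicate 2, Gclm alone of 35 tested members changed, beside 0.357% of all 14828 genes that rose and 0.128% that fell, although the median of the members was -0.17 as well. Leaving out DCM replicate 1 or DCM replicate 2 left 3 and 2 changed members. With a correction for GC content 4 members changed, Gsta4, Gclm and Srxn1 of the 11 and Gpx3, which was higher and had not passed before. For this fit, and for those without a DCM library, the share over all genes was not counted. SPM compared to DCM and DCM compared to CK share the DCM libraries, so opposite signs in the 2 comparisons are not independent of each other.

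In SPM compared to CK, 6 members rose (Gstm1, Mgst1, Gpx3, Gclc, Gsr and Cat) and 9 fell (Gstm2, Gstk1, Gpx7, Gclm, Prdx5, Txn1, Txn2, Txnrd2 and Srxn1), beside 13.0% and 14.3% of the 14574 genes tested. The DEGs were Mgst1, higher, and Gpx7, Gclm and Txnrd2, lower, where 5.08% of all genes were higher and 4.12% lower by that limit. The median log2 fold change was -0.02. Without SPM replicate 2, Mgst1 and Gpx3 rose and Gpx7 and Gclm fell among 35 tested members, beside 5.26% and 5.10% of 14897 genes. With the GC correction 7 rose (Gstm1, Mgst1, Mgst3, Gpx3, Gclc, Gsr and Cat) and 4 fell (Gpx7, Gclm, Txn1 and Txn2), so that Gstm2, Gstk1, Prdx5, Txnrd2 and Srxn1 lost their calls, and 9 members changed without CK replicate 2 and without CK replicate 3. The share over all genes was not counted for these fits.

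**Figure D1:**
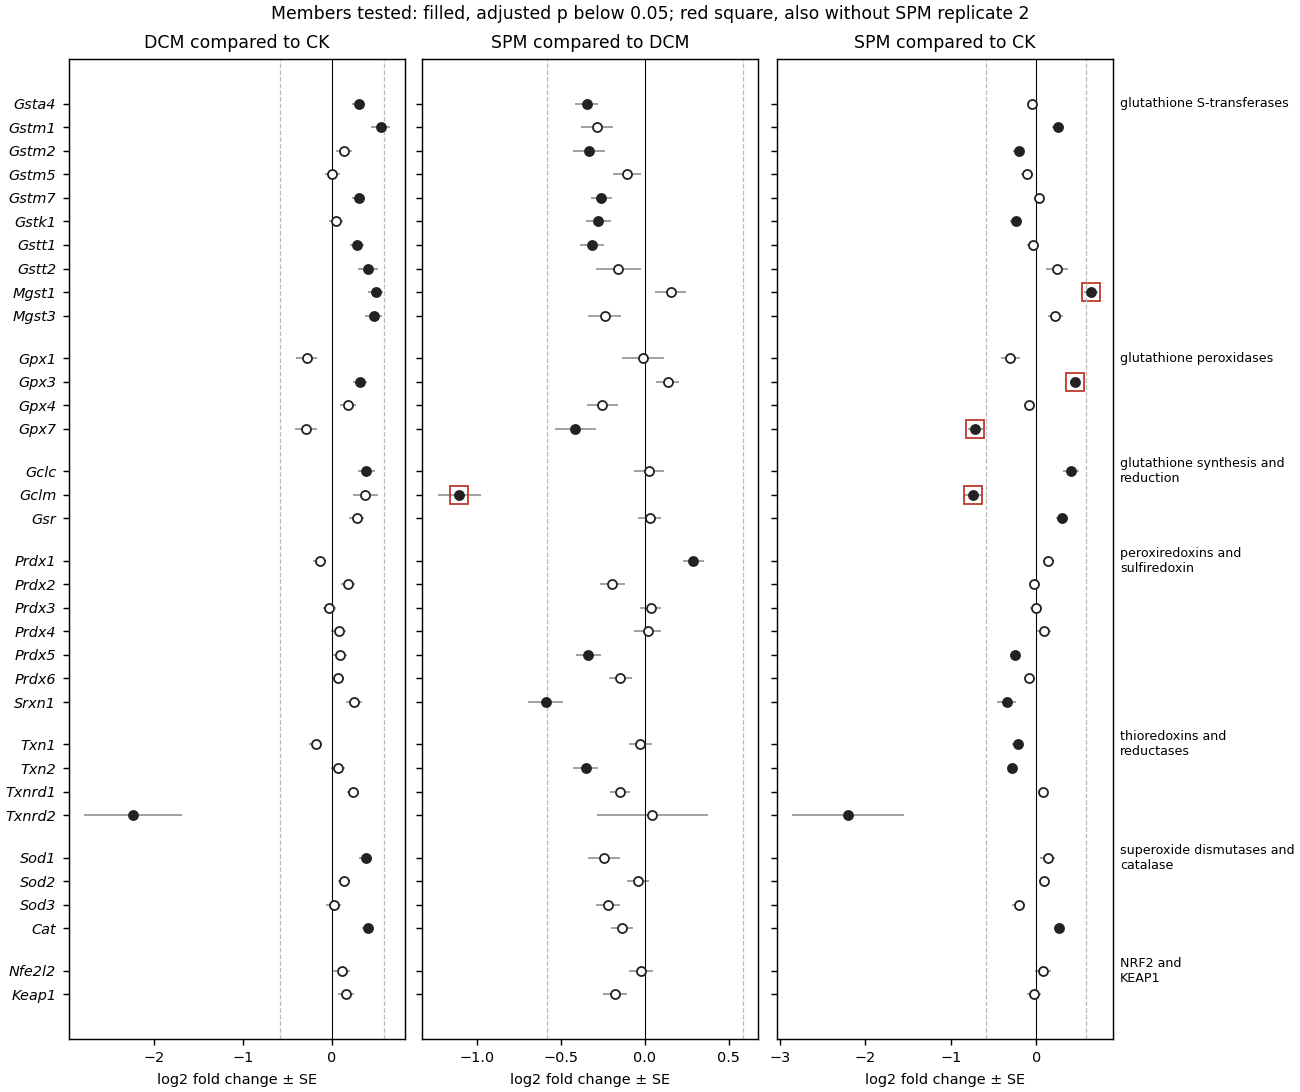
Log2 fold change (horizontal, ± SE, each panel with its own scale) of the 34 tested members by role in the 3 comparisons of 3 against 3 libraries, with dashed lines at 1.5-fold. Filled points passed an adjusted p below 0.05 and red squares passed it without SPM replicate 2 as well. Filled points lie mostly to the right of 0 in DCM compared to CK (11 of 12) and to the left in SPM compared to DCM (10 of 11), and the only red square in SPM compared to DCM is Gclm.

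Markers of cell types moved between the groups too. In the summed level of the 6 cardiomyocyte markers with a row, every SPM library (35390 to 40810 CPM) stood below every CK library (42230 to 47540). The DCM libraries, at 40610 to 48230, overlapped both. Against CK, Tnnt2 rose in SPM while Myh6 and Tnni3 fell, and none of the 6 passed without SPM replicate 2. With the GC correction Tnnt2 and Mybpc3 rose there and none fell. Against DCM, none of the 6 passed in SPM. The summed level of 10 macrophage markers was 803 to 1061 CPM in CK, from 669 to 788 in DCM and from 792 to 1349 in SPM, that of the 9 fibroblast markers with a row was 5445 to 5682, 4825 to 5365 and 4502 to 4944, and that of the 7 erythroid markers with a row was 1543 to 3622, 1330 to 3284 and 759 to 1295. The fibroblast sum was mostly Gsn, with means of 3475, 3647 and 3041 CPM in CK, DCM and SPM. In SPM compared to DCM, 6 of the 9 fibroblast markers had a log2 fold change above 0 and 3 below. Neutrophil markers (9 with a row) summed to 5.61 to 11.8 CPM in CK, to between 12.9 and 29.2 in DCM and to between 31.6 and 63.8 in SPM, and all 7 that were tested rose in SPM compared to CK. Liver markers (10 with a row) summed to 20.2 to 90.9, 35.5 to 43.5 and 43.6 to 401 CPM. The part of these cell types and of liver RNA in the members' values was not tested.

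Glutathione S-transferases were mostly higher in DCM. In DCM compared to CK, 7 of the 10 tested members rose and all 10 had a log2 fold change above 0 (median 0.30), and in SPM compared to DCM 5 of 10 fell and 9 lay below 0 (median -0.27). Those 5 calls became 0 of 11 without SPM replicate 2 (6 lower at an unadjusted p below 0.05) and 1 of 10, Gsta4, with the GC correction. The share of all genes at an unadjusted p below 0.05 was not counted. Gstm1, the mu-class enzyme with the most transcript among the soluble members, stood at 337, 303 and 276 CPM in CK, 477, 482 and 378 in DCM and 367, 371 and 359 in SPM. Every DCM library was above every CK and every SPM library, and every SPM library was above every CK library. On the log2 scale the fold change was 0.55 ± 0.10 (SE, adjusted p = 0.00569) in DCM compared to CK, 0.26 ± 0.07 (adjusted p = 0.0331) in SPM compared to CK, and -0.29 ± 0.09 (adjusted p = 0.0609) in SPM compared to DCM, which did not pass. Without SPM replicate 2 the adjusted p of SPM compared to CK was 0.126.

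Gstm7, another mu-class enzyme, was at 43.3, 42.1 and 45.2 CPM in CK, 54.1, 54.5 and 51.9 in DCM and 43.9, 45.4 and 44.9 in SPM. DCM stood above the other groups without overlap, whereas CK and SPM overlapped. It rose by 0.30 ± 0.07 on the log2 scale in DCM (adjusted p = 0.0189) and fell by 0.26 (SE 0.06, adjusted p = 0.0255) in SPM compared to DCM, with an adjusted p of 0.134 without SPM replicate 2. Gsta4, which clears the lipid peroxidation product 4-hydroxynonenal, was also highest in DCM while CK and SPM overlapped, at 66.9, 63.0 and 63.5 CPM in CK, 78.0, 83.7 and 76.2 in DCM and 59.4, 64.0 and 63.9 in SPM. Its log2 fold changes were 0.30 ± 0.07 (adjusted p = 0.0182) in DCM compared to CK and -0.35 ± 0.07 (adjusted p = 0.0149) in SPM compared to DCM, the latter with an adjusted p of 0.0738 without SPM replicate 2. Theta-class Gstt1 lay at 27.5 to 29.6 CPM in CK, from 32.8 to 35.7 in DCM and from 27.0 to 28.5 in SPM, with an adjusted p of 0.0428 in DCM compared to CK and 0.0196 in SPM compared to DCM. Without SPM replicate 2 the latter was 0.110. The rises in DCM lost their calls without CK replicate 2 or DCM replicate 2 for Gstm7, Gsta4 and Gstt1, and also without CK replicate 3 for Gsta4 and Gstt1, without DCM replicate 1 for Gstm7 and Gstt1, and without DCM replicate 3 for Gstt1.

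The microsomal transferases, which sit in membranes and also reduce lipid peroxides, did not share 1 pattern. Mgst3 was at 387, 331 and 372 CPM in CK, 487, 561 and 457 in DCM and 469, 424 and 381 in SPM, so that DCM stood above CK and the SPM libraries reached from the level of CK to that of DCM. Its log2 fold change was 0.47 ± 0.09 (adjusted p = 0.00671) in DCM compared to CK and -0.24 ± 0.10 (adjusted p = 0.114) in SPM compared to DCM. Mgst1 was at 46.5, 48.8 and 45.2 CPM in CK, 63.5, 72.1 and 61.7 in DCM and 79.8, 74.9 and 64.7 in SPM. All DCM and SPM libraries were above all CK libraries, and DCM and SPM overlapped. It rose by 0.49 ± 0.08 on the log2 scale in DCM (adjusted p = 0.00218) and by 0.64 ± 0.08 in SPM compared to CK (adjusted p = 0.00171, and 0.0120 without SPM replicate 2), the one member that was a DEG upward. With the GC correction its value there was 0.53 (adjusted p = 0.00360) and not a DEG, whereas Gpx3 was one at 0.59 (adjusted p = 0.000355). Transcripts of the liver gene Alb were at 248, 113 and 0.293 CPM in the SPM libraries, at 2.39, 28.2 and 1.07 in CK and at 0.264 to 0.352 in DCM. Mgst1 and Alb both fell in the order of SPM replicates 1, 2 and 3. Replicate 2 lay between replicates 1 and 3 for 69.0% of the 11990 genes with a mean count of at least 50. The part of liver RNA in the values of Mgst1 was not tested.

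Of the remaining transferases, Gstt2 rose in DCM compared to CK (log2 fold change 0.41 ± 0.11, adjusted p = 0.0366) from 12.6 to 14.3 CPM in CK to 16.0 to 19.8 in DCM, a call that was lost without any 1 of the CK libraries, DCM replicate 1 or DCM replicate 2. Gstm2 and the kappa-class Gstk1, located in mitochondria and peroxisomes, fell in SPM compared to both DCM and CK. Gstk1 was at 62.6 to 71.4 CPM in CK, from 65.1 to 75.7 in DCM and from 57.4 to 59.5 in SPM, and Gstm2 at 96.8 to 107, 94.3 to 121 and 83.7 to 92.0. Neither kept the call without SPM replicate 2 (adjusted p from 0.111 to 0.152). Gstm5 passed in no comparison with edgeR's test, with log2 fold changes of -0.11 to 0.00, and limma called it in SPM compared to CK (adjusted p = 0.0310).

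**Figure D2:**
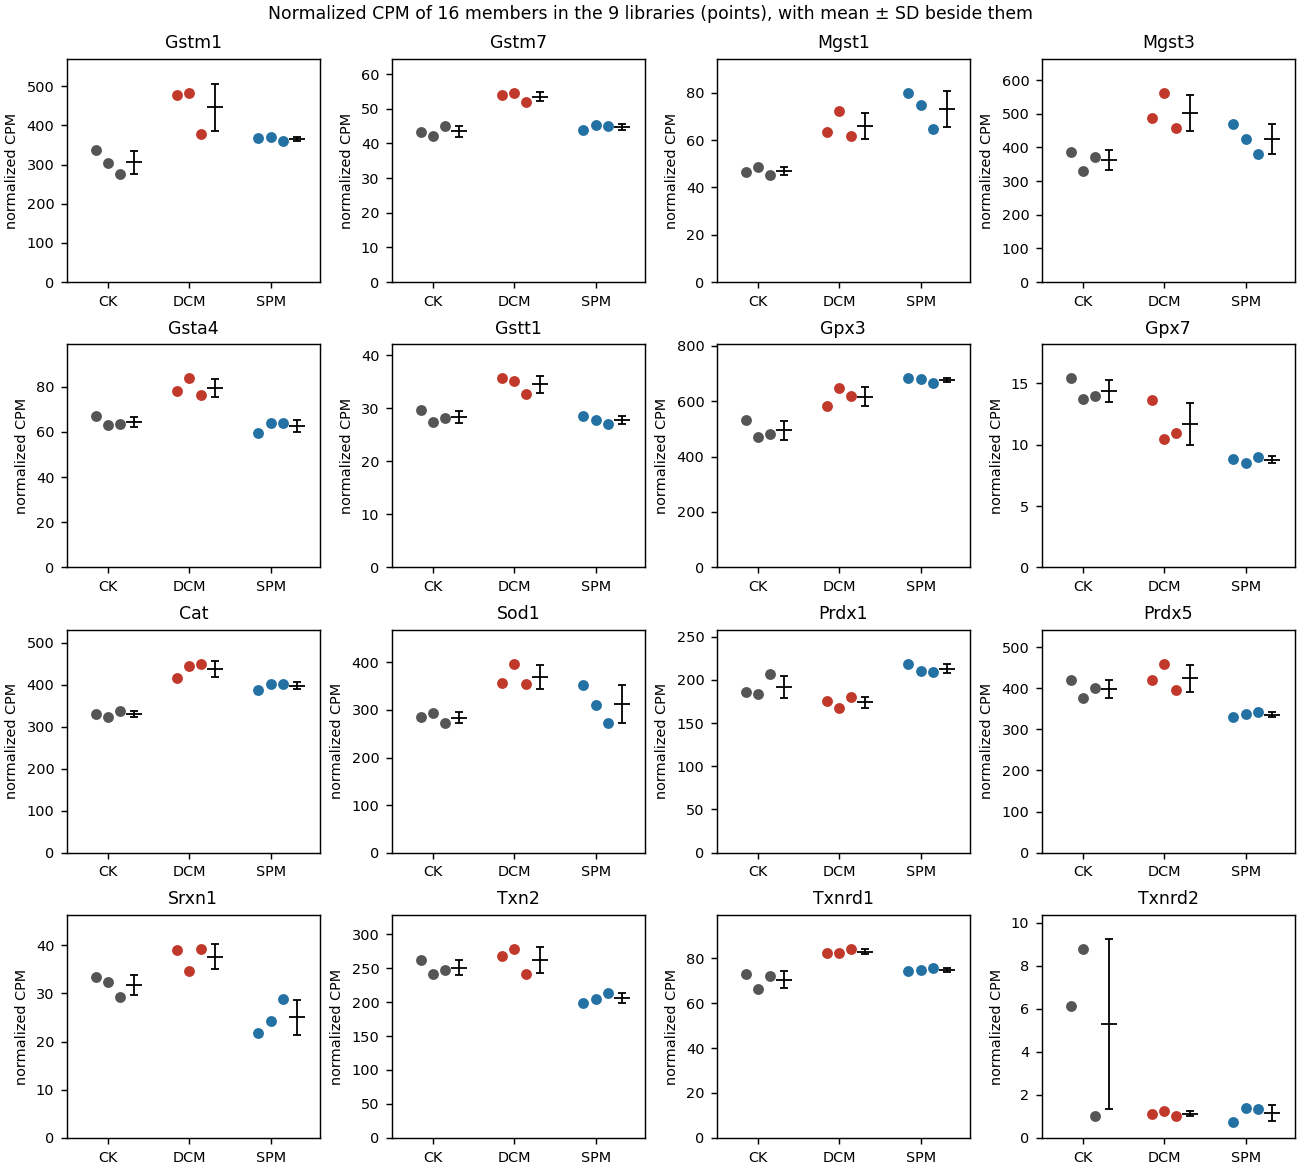
Normalized CPM (vertical, from 0) of 16 members in the 3 CK, 3 DCM and 3 SPM libraries, 1 point a library, with mean ± SD beside the points. Gstm7, Gsta4 and Gstt1 are high in DCM alone, Mgst1 and Gpx3 are above CK in DCM and SPM, Gpx7 is lowest in SPM, and Txnrd2 is high in CK replicates 1 and 2 alone.

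The 4 tested glutathione peroxidases went different ways. Gpx3, the extracellular enzyme, was at 532, 471 and 480.4 CPM in CK, 582, 649 and 618 in DCM and 683, 681 and 668 in SPM. The groups did not overlap, and CK was lowest and SPM highest. The log2 fold change was 0.32 ± 0.08 (adjusted p = 0.0217) in DCM compared to CK, 0.45 ± 0.06 (adjusted p = 0.00171) in SPM compared to CK and 0.13 ± 0.07 (adjusted p = 0.198) in SPM compared to DCM, where the GC correction gave 0.29 (adjusted p = 0.0462). With that correction on SPM replicates 1 and 3 only, Gpx3 did not pass in SPM compared to DCM. The call in SPM compared to CK held without SPM replicate 2 (adjusted p = 0.0141), whereas that in DCM compared to CK was lost without CK replicate 2, CK replicate 3, DCM replicate 2 or DCM replicate 3.

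Gpx7, a peroxidase of the endoplasmic reticulum that helps to form disulfide bonds, ran the other way, at 15.4, 13.7 and 14.0 CPM in CK, 13.6, 10.5 and 11.0 in DCM and 8.86, 8.49 and 9.01 in SPM. Again no groups overlapped, with CK highest and SPM lowest. It fell by 0.71 on the log2 scale (SE 0.09, adjusted p = 0.00154) in SPM compared to CK, which is 0.610 of the CK level, and kept the call without SPM replicate 2 (adjusted p = 0.0137). The change in SPM compared to DCM was -0.42 ± 0.12 (adjusted p = 0.0423, 0.176 without SPM replicate 2 and 0.200 with the GC correction), and that in DCM compared to CK was -0.29 ± 0.13 (adjusted p = 0.175). Fibroblast markers moved too. Of 9 tested, 5 fell in DCM compared to CK, 5 fell in SPM compared to CK while Dcn and Pdgfra rose, and Dcn and Lum rose and none fell in SPM compared to DCM. Col1a1, Col1a2, Col3a1 and Postn were among those lower than in CK in both groups, and their part in the values of Gpx7 was not tested. Gpx4 (650 to 722 CPM in CK, 667 to 830 in DCM, 607 to 687 in SPM) and the cytosolic Gpx1 (122 to 157, 97.3 to 136 and 101 to 128) passed in no comparison with edgeR's test. DESeq2 called Gpx4 lower in SPM compared to DCM (adjusted p = 0.0260), and Gpx1 was called lower in SPM compared to CK by DESeq2 (adjusted p = 0.0281) and limma (adjusted p = 0.0350).

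Glutathione synthesis held the member with the largest fall in SPM compared to DCM among the tested 34. Gclm, the modifier subunit of glutamate-cysteine ligase, which lowers the enzyme's feedback inhibition by glutathione, was at 11.9, 11.6 and 9.73 CPM in CK, 11.8, 16.0 and 15.3 in DCM and 6.71, 6.40 and 6.90 in SPM, from 199 to 521 reads a library. Every SPM library was below every CK and DCM library, and CK and DCM overlapped. It fell by 1.10 on the log2 scale (SE 0.13, adjusted p = 0.00652) in SPM compared to DCM, to 0.465 of the DCM level, and by 0.74 (SE 0.11, adjusted p = 0.00324) in SPM compared to CK. Without SPM replicate 2 the adjusted p was 0.0224 and 0.0240. Gclm in SPM compared to DCM missed the threshold in 1 of the alternatives run, the GC correction on SPM replicates 1 and 3 only (log2 fold change -1.33, adjusted p = 0.0608). The difference between DCM and CK was 0.37 ± 0.14 (adjusted p = 0.112).

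Gclc, the catalytic subunit, behaved otherwise, at 15.6, 17.7 and 16.0 CPM in CK, 21.0, 21.8 and 21.6 in DCM and 19.8, 21.6 and 24.2 in SPM. Both diabetic groups were above CK without overlap and overlapped each other. The log2 fold change was 0.39 ± 0.09 (adjusted p = 0.0193) in DCM compared to CK, 0.41 ± 0.10 (adjusted p = 0.0171) in SPM compared to CK, and 0.03 ± 0.09 (adjusted p = 0.866) in SPM compared to DCM. The call in SPM compared to CK was lost without SPM replicate 2 (adjusted p = 0.0664), and that in DCM compared to CK without CK replicate 1, CK replicate 3, DCM replicate 2 or DCM replicate 3. Set per length, the FPKM of Gclc was 2.14, 2.49 and 2.69 times that of Gclm in the CK libraries, 2.90, 2.22 and 2.31 times in DCM and 4.82, 5.51 and 5.72 times in SPM. The ratio thus overlapped between CK and DCM and was higher in all SPM libraries than in any other library. Glutathione reductase, Gsr, was at 24.7 to 27.6 CPM in CK, from 30.3 to 32.4 in DCM and from 30.8 to 32.9 in SPM. It rose in SPM compared to CK (0.30 ± 0.07, adjusted p = 0.0153, and 0.0949 without SPM replicate 2) and had an adjusted p of 0.0545 in DCM compared to CK, which was 0.0260 with the GC correction.

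**Figure D3:**
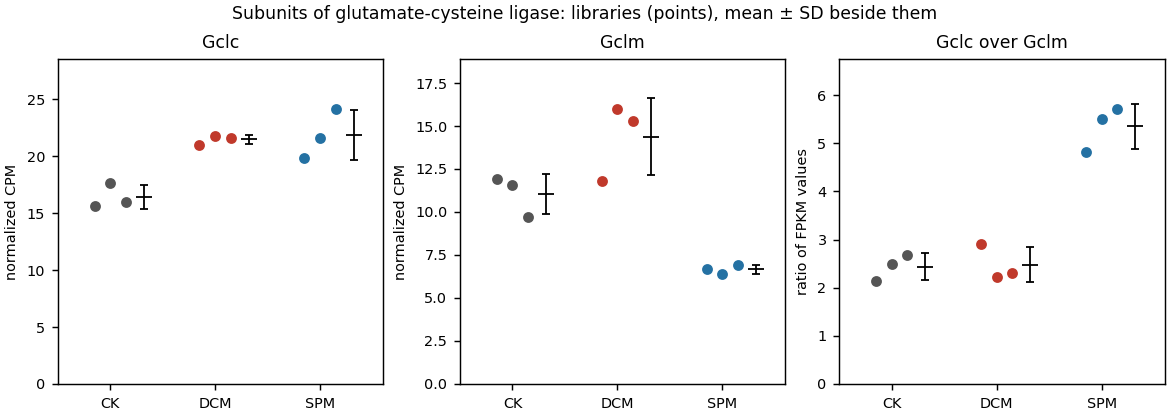
Normalized CPM of Gclc and Gclm and the ratio of their FPKM values (vertical, from 0) in the 9 libraries, with mean ± SD beside the points. Gclc is above CK in both diabetic groups, Gclm is lowest in the SPM libraries at 6.40 to 6.90 CPM, and the ratio is 2.14 to 2.90 outside SPM and 4.82 to 5.72 in SPM.

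Peroxiredoxin genes did not pass in DCM. None of the 7 peroxiredoxin and sulfiredoxin genes passed edgeR's test in DCM compared to CK, where 2 were higher at an unadjusted p below 0.05, and DESeq2 called 0 and limma 1. Against DCM, the SPM group had 1 higher and 2 lower among the 7, and none of the 7 passed without SPM replicate 2, where 1 was higher and 2 were lower at an unadjusted p below 0.05. Srxn1, sulfiredoxin, which repairs overoxidised peroxiredoxins, was at 33.3, 32.5 and 29.3 CPM in CK, 39.1, 34.6 and 39.2 in DCM and 21.9, 24.3 and 28.9 in SPM. All SPM libraries lay below all CK libraries, and all CK libraries below all DCM libraries. It fell by 0.59 on the log2 scale (SE 0.10, adjusted p = 0.0112) in SPM compared to DCM, with an adjusted p of 0.0566 without SPM replicate 2, and by 0.35 (SE 0.11, adjusted p = 0.0422) in SPM compared to CK, with an adjusted p of 0.149 without it. The difference of DCM from CK was 0.25 ± 0.09 (adjusted p = 0.0926).

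Prdx1, a cytosolic peroxiredoxin, was at 186, 184 and 207 CPM in CK, 175, 167 and 180.1 in DCM and 219, 210.2 and 209 in SPM, with DCM lowest and SPM highest and no overlap. It rose by 0.29 ± 0.06 on the log2 scale (adjusted p = 0.0190) in SPM compared to DCM, but the value was 0.05 (adjusted p = 0.620) with the GC correction and the adjusted p was 0.101 without SPM replicate 2. Prdx5, found in mitochondria, peroxisomes and cytosol, was at 419, 376 and 401 CPM in CK, 419.5, 460 and 395 in DCM and 330.1, 337 and 341 in SPM. SPM stood below the other groups, which overlapped. Its log2 fold change was -0.34 ± 0.07 (adjusted p = 0.0190) in SPM compared to DCM and -0.25 ± 0.06 (adjusted p = 0.0132) in SPM compared to CK, and the adjusted p was 0.101 and 0.0802 without SPM replicate 2 and 0.108 and 0.150 with the GC correction. Mitochondrial Prdx3 differed by at most 0.03 on the log2 scale in any comparison, with 229 to 269 CPM in CK, from 240 to 248 in DCM and from 244 to 255 in SPM. Prdx2, Prdx4 and Prdx6 had log2 fold changes of -0.19 to 0.18 and adjusted p of 0.0972 or more with edgeR's test, while DESeq2 called Prdx2 lower in SPM compared to DCM (adjusted p = 0.0453) and limma called Prdx6 lower in SPM compared to CK (adjusted p = 0.0176). Prdx2, which is also the main peroxiredoxin of red blood cells, was at 282 to 305 CPM in CK, from 309 to 358 in DCM and from 279 to 302 in SPM.

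Among the thioredoxin genes, Txn2, the mitochondrial thioredoxin, was at 263, 241 and 247 CPM in CK, 267, 278 and 241 in DCM and 198, 205 and 213 in SPM. SPM was below both other groups, which overlapped. It fell by 0.35 on the log2 scale (SE 0.07, adjusted p = 0.0165) in SPM compared to DCM and by 0.29 (SE 0.06, adjusted p = 0.00802) in SPM compared to CK, and without SPM replicate 2 the adjusted p was 0.0888 and 0.0558. Cytosolic Txn1 was at 59.3 to 63.4 CPM in CK, from 52.4 to 54.0 in DCM and from 50.1 to 55.7 in SPM, and passed edgeR's test in SPM compared to CK (-0.22 ± 0.07, adjusted p = 0.0390, and 0.181 without SPM replicate 2). In DCM compared to CK it had an adjusted p of 0.118, and limma called it lower (adjusted p = 0.0202). Txnrd1, the cytosolic reductase, had no overlap between groups, at 66.1 to 73.1 CPM in CK, from 82.1 to 84.1 in DCM and from 74.1 to 75.6 in SPM, with an adjusted p of 0.0505 in DCM compared to CK and 0.108 in SPM compared to DCM. The difference of DCM from CK (0.24 ± 0.07 on the log2 scale) was called by DESeq2 (adjusted p = 0.0294) and with the GC correction (adjusted p = 0.0223), and limma gave an adjusted p of 0.162.

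Txnrd2 stood apart by its spread within CK. It was at 6.15, 8.79 and 1.00 CPM in the CK libraries (193, 315 and 31 reads), at 1.11, 1.25 and 1.03 in DCM and at 0.739, 1.41 and 1.33 in SPM. CK replicate 3 was thus at the level of the diabetic groups, and the groups overlapped. Whether read counting or annotation sets these values was not tested. The log2 fold change of -2.24 ± 0.55 in DCM compared to CK (adjusted p = 0.0214) was lost by DESeq2 (adjusted p = 0.0507) and by limma (adjusted p = 0.12), and also without CK replicate 2 (0.115) or without any 1 of the DCM libraries (0.0692 to 0.0891). The value in SPM compared to CK was -2.20 ± 0.65 (adjusted p = 0.0366, and 0.0845 without SPM replicate 2).

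Of superoxide dismutases and catalase, Cat and Sod1 rose in DCM compared to CK. Cat was at 329, 323 and 339 CPM in CK, 416, 445 and 450.0 in DCM and 388, 401 and 403 in SPM. The groups did not overlap, with SPM between CK and DCM. Its log2 fold change was 0.40 ± 0.07 (adjusted p = 0.00331) in DCM compared to CK, 0.26 ± 0.05 (adjusted p = 0.00758, and 0.0590 without SPM replicate 2) in SPM compared to CK and -0.14 ± 0.07 (adjusted p = 0.171) in SPM compared to DCM. Sod1, the cytosolic copper-zinc enzyme, was at 285, 294 and 273 CPM in CK, 356, 397 and 354 in DCM and 353, 310.2 and 274 in SPM. DCM was above CK, and the SPM libraries were spread over the range between. Its log2 fold change was 0.38 ± 0.07 (adjusted p = 0.00706) in DCM compared to CK and -0.24 ± 0.10 (adjusted p = 0.103, and 0.0434 by DESeq2) in SPM compared to DCM. Mitochondrial Sod2 (517 to 556 CPM in CK, 582 to 610.3 in DCM, 560.4 to 592 in SPM) and extracellular Sod3 (55.5 to 65.2, 56.3 to 64.5 and 49.9 to 52.3) passed in no comparison with edgeR's test. Sod3 was called lower by DESeq2 in SPM compared to DCM (adjusted p = 0.0475) and by limma in SPM compared to CK (adjusted p = 0.0238).

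The regulators themselves moved little. Nfe2l2 was at 64.8, 79.2 and 82.0 CPM in CK, 79.2, 76.6 and 87.6 in DCM and 76.1, 80.2 and 83.2 in SPM, and Keap1 at 48.8 to 59.6, 57.4 to 66.6 and 54.2 to 55.8. Neither passed edgeR's test, DESeq2 or limma in any of the 3 comparisons, and the only unadjusted p below 0.05 was that of Keap1, lower in SPM compared to DCM (log2 fold change -0.18 ± 0.07, adjusted p = 0.110).

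**Figure D4:**
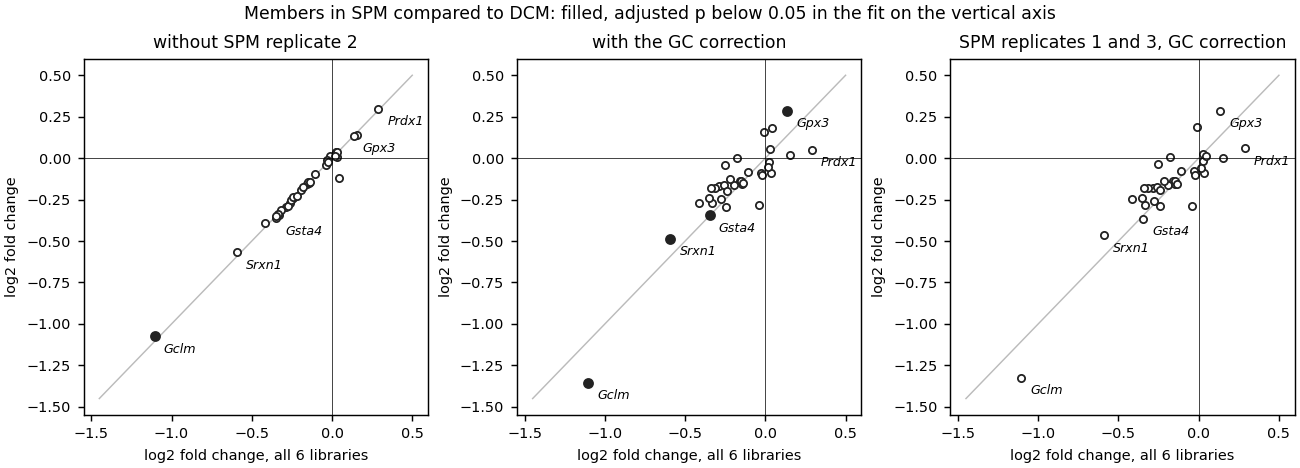
Log2 fold changes of the 34 tested members in SPM compared to DCM, with all 6 libraries on the horizontal axis and, on the vertical axis, without SPM replicate 2, with the GC correction, and with both. Grey lines mark equal values and filled points an adjusted p below 0.05 in the fit on the vertical axis. Without SPM replicate 2 the values stay close to the line while only Gclm is filled, and with the GC correction Prdx1 moves to 0.05 and Gclm to -1.35.

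Genes around the members were described from 7 lists of related genes. Their counts in edgeR's main fits stand beside 5.28% of all genes that rose and 5.11% that fell in DCM compared to CK. The shares were 8.87% and 7.76% in SPM compared to DCM, and 13.0% and 14.3% in SPM compared to CK. Counts at an unadjusted p, by DESeq2 or by limma have no such share here. Of 24 tested targets and regulators of NRF2 that are not members, 7 rose in DCM compared to CK (Nqo1, Hmox1, Aox1, Ephx1, Fth1, Sqstm1 and Maff) and Ptgr1 fell, with a median log2 fold change of 0.06 over the list. Nqo1, a quinone reductase, was at 54.2, 46.1 and 51.7 CPM in CK, 84.5, 73.0 and 87.6 in DCM and 90.9, 78.9 and 70.2 in SPM. All libraries of both diabetic groups were above CK. It rose by 0.69 ± 0.09 on the log2 scale in DCM (adjusted p = 0.000453) and by 0.66 ± 0.10 in SPM compared to CK (adjusted p = 0.00305, and 0.0145 without SPM replicate 2), as a DEG in both. Hmox1, heme oxygenase, rose in DCM (0.52 ± 0.10, adjusted p = 0.00807), and Fth1, the ferritin heavy chain and the most abundant gene of the list, rose by 0.35 ± 0.09 (adjusted p = 0.0216). The reductase Ptgr1 fell by 0.92 (SE 0.23, adjusted p = 0.0218) in DCM, at 1.68 to 2.17 CPM beside 3.32 to 3.95 in CK. Of the 24, 4 rose and 4 fell in SPM compared to DCM, Sqstm1 among the latter, and none of the 24 passed without SPM replicate 2 (4 higher and 4 lower at an unadjusted p below 0.05). Blvrb, biliverdin reductase B, was at 18.1 to 25.8 CPM in CK, from 18.9 to 21.0 in DCM and from 13.4 to 16.3 in SPM, and fell by 0.62 (SE 0.14, adjusted p = 0.0120, and 0.0564 without SPM replicate 2) in SPM compared to CK as a DEG. In SPM compared to DCM it fell by 0.46 (SE 0.10, adjusted p = 0.0171, and 0.0987 without SPM replicate 2), and did not pass there with the GC correction.

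Metallothioneins, thiol-rich proteins that bind zinc and copper, had the highest median log2 fold change in DCM among these lists (0.94 over 3 tested genes, which is the value of Mt1). Mt1 and Mt2 rose, whereas Mt3 lay below 0 (-0.24) and did not pass. Mt1 was at 140.3, 131 and 133 CPM in CK, 277, 275 and 222 in DCM and 184, 183 and 184 in SPM. The groups did not overlap, with SPM between the others. It rose by 0.94 ± 0.09 on the log2 scale in DCM compared to CK (adjusted p = 6.38e-05) and by 0.44 ± 0.05 in SPM compared to CK (adjusted p = 0.00126, and 0.0119 without SPM replicate 2), and it fell by 0.49 (SE 0.09, adjusted p = 0.0119) in SPM compared to DCM, with an adjusted p of 0.0572 without that library. Mt2 rose in DCM as well (1.48 ± 0.33, adjusted p = 0.0144) at a low level, 0.606 to 0.753 CPM in CK and 1.66 to 2.21 in DCM. In SPM, at 1.302 to 2.185 CPM, it was a DEG upward compared to CK (log2 fold change 1.28). That call was lost without SPM replicate 2.

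Genes of cysteine supply and of glutathione export and breakdown gave 2 rises among 15 tested in DCM compared to CK, and both genes act at the plasma membrane. Ggt5, a gamma-glutamyl transferase, was at 16.7, 13.8 and 14.7 CPM in CK, 23.4, 27.4 and 26.3 in DCM and 24.7, 21.0 and 16.5 in SPM, and rose by 0.77 ± 0.10 in DCM as a DEG (adjusted p = 0.000584). Slc3a2, the heavy chain of several amino acid transporters, rose by 0.47 ± 0.07 (adjusted p = 0.00117) from 56.1 to 59.9 CPM in CK to 77.0 to 83.5 in DCM, and by 0.48 ± 0.09 in SPM compared to CK (adjusted p = 0.00644, and 0.0315 without SPM replicate 2). Slc25a39, the most abundant gene of the list and a mitochondrial glutathione carrier, fell in SPM compared to DCM (-0.35 ± 0.09, adjusted p = 0.0246, and 0.112 without SPM replicate 2). With the GC correction Slc25a39 did not pass. Cbs, cystathionine beta-synthase, rose as a DEG in SPM compared to CK (1.04 ± 0.30, adjusted p = 0.0320, and 0.127 without SPM replicate 2). It was at 1.05 to 1.62 CPM in CK, 1.86 to 2.21 in DCM and 3.36, 2.86 and 1.86 in SPM. Cbs and the liver gene Alb both fell in the order of SPM replicates 1, 2 and 3. The part of liver RNA in the values of Cbs was not tested. The transporter Slc7a11, which imports cystine, was below 1 CPM in every library (0.0638 to 0.708). Of 10 tested genes of the transferase and peroxidase families that are not members, Gstm4 rose in DCM (0.40 ± 0.10, adjusted p = 0.0229). Gstm6 fell in SPM compared to CK by 1.34 (SE 0.24, adjusted p = 0.00583, and 0.0440 without SPM replicate 2) at 0.901 to 1.29 CPM beside 2.56 to 3.22 in CK. Gstz1, the zeta-class enzyme and the most abundant of these 10, was at 41.6 CPM or less in CK, 44.1 or more in DCM and 36.9 or less in SPM. It fell in SPM compared to DCM (-0.40 ± 0.07, adjusted p = 0.0116) and to CK (-0.22 ± 0.07, adjusted p = 0.0405), with adjusted p of 0.0735 and 0.197 without SPM replicate 2.

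Among 15 tested genes of NADPH supply, Idh2, the mitochondrial isocitrate dehydrogenase and the most abundant of them, rose in DCM compared to CK. It was at 2586, 2273 and 2697 CPM in CK, 3208, 3577 and 3252 in DCM and 2874, 2802 and 2717 in SPM, without overlap between the groups. Its log2 fold change was 0.41 ± 0.09 (adjusted p = 0.0101) in DCM compared to CK and -0.26 ± 0.08 (adjusted p = 0.0464, and 0.209 without SPM replicate 2) in SPM compared to DCM. The latter did not pass with the GC correction. Aldh1l2, a mitochondrial folate enzyme, fell in DCM as a DEG (-0.59 ± 0.17, adjusted p = 0.0422), from 10.6 to 15.8 CPM to 7.16 to 9.88. Mthfd2, another mitochondrial folate enzyme, rose as a DEG in SPM compared to CK (0.88 ± 0.22, adjusted p = 0.0184, and 0.0689 without SPM replicate 2), at 5.91 to 6.41 CPM beside 2.23 to 3.92. Nnt, the transhydrogenase that makes NADPH in mitochondria, had 0 to 5 reads and 0.140 CPM or less in every library. Whether read counting or annotation sets this was not tested, and no level was read from the row. None of 17 tested other thioredoxin, glutaredoxin and repair genes passed edgeR's test in DCM compared to CK (3 higher and 1 lower at an unadjusted p below 0.05, and 1 by DESeq2 and 1 by limma), whereas 2 rose and 5 fell in SPM compared to DCM, with 0 without SPM replicate 2 (2 higher and 7 lower at an unadjusted p below 0.05). Sesn1, a stress-induced sestrin, rose by 0.59 ± 0.14 in SPM compared to CK (adjusted p = 0.0143, and 0.0458 without SPM replicate 2). Park7, the most abundant of these genes, had log2 fold changes of 0.08 in DCM compared to CK, -0.22 in SPM compared to DCM and -0.14 in SPM compared to CK, with adjusted p of 0.543, 0.0558 and 0.139, and was called lower by DESeq2 in SPM compared to DCM (adjusted p = 0.0196) and by limma in SPM compared to CK (adjusted p = 0.0285). Of 16 tested genes of selenoprotein synthesis and selenoproteins, 0 passed in DCM compared to CK (2 lower at an unadjusted p below 0.05, 0 by DESeq2 and 1 by limma) and 5 rose in SPM compared to CK, a count of 3 without SPM replicate 2 and 2 with the GC correction. Selenop, the secreted selenium carrier, was at 525, 549 and 500 CPM in CK, 543, 512 and 552 in DCM and 687, 649.9 and 629 in SPM, and rose in SPM compared to CK (0.32 ± 0.06, adjusted p = 0.00718, 0.0414 without SPM replicate 2, and 0.118 with the GC correction).

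**Figure D5:**
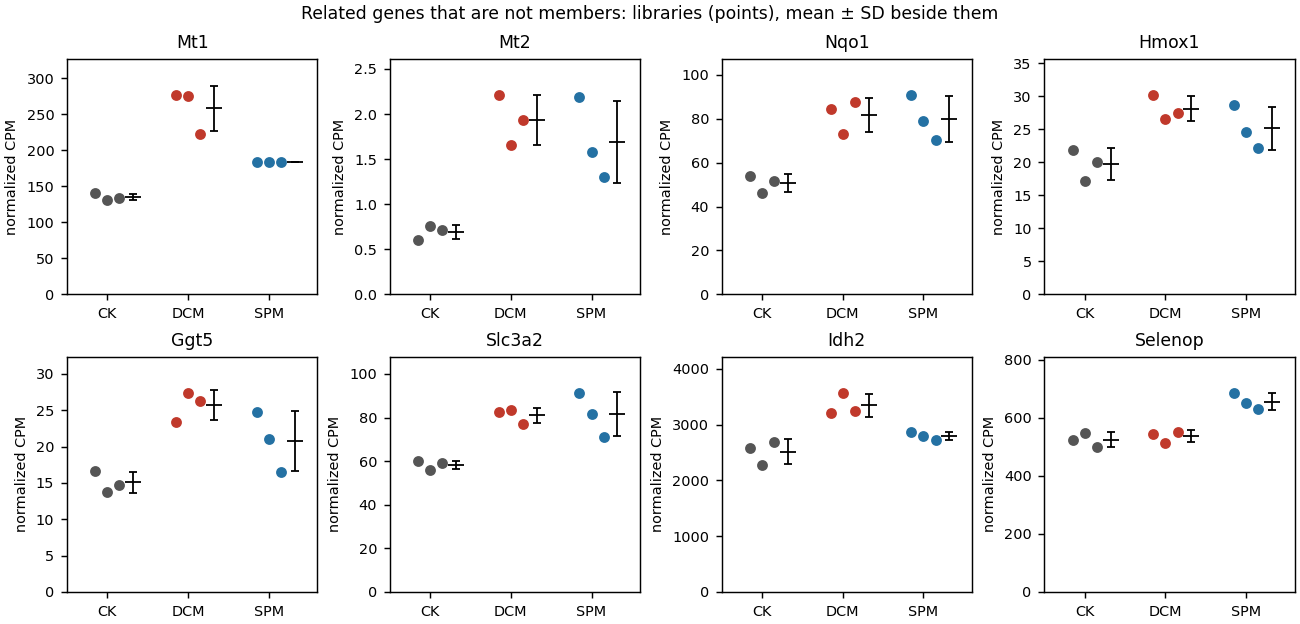
Normalized CPM (vertical, from 0) of 8 genes around the members in the 9 libraries, with mean ± SD beside the points. Mt1 is highest in DCM with SPM between the groups, Nqo1 and Slc3a2 are above CK in both diabetic groups, and Selenop is highest in SPM, at 629 to 687 CPM.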

How the data were processed

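Heart RNA of 9 libraries (3 CK, 3 DCM, 3 SPM) was grouped by the deposited labels. The authors deposited whole-number counts per gene and library and, separately, FPKM values, which equal those counts over a fixed gene length and the total of the library (largest relative deviation 8.6e-13). Reads were filtered with fastp by the authors. The submitters' processing notes name Bowtie 0.12.2 and the builds mm8 and mm9 with no role, and the way reads were assigned to genes is not given in the sources used here. Names and loci were taken from GENCODE M21 by identifier, which matched 22820 of 22851 genes.

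Groups were compared in pairs, 6 libraries at a time, with edgeR 4.0.16 in R 4.3.3 (filterByExpr, TMM factors of 0.967 to 1.05, quasi-likelihood test, Benjamini-Hochberg adjustment over all genes tested). A gene changed at an adjusted p below 0.05, and was a DEG with a fold change of at least 1.5 as well, the limits of the study's methods. Normalized CPM are counts scaled to equal library totals with TMM factors over all 9 libraries. SEs were computed as the log2 fold change over the square root of F. Fits were tested on simulated data with known changes. Members and lists were chosen with earlier results of these data known. All members were described by role, and related genes were named where they were DEGs in a comparison or the most abundant of their list. Other related genes named, such as Hmox1, Slc3a2, Slc7a11, Nnt and Gstm4, were chosen after their values were seen.

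The alternatives were DESeq2 1.42.0, limma 3.58.1 on log2 of FPKM plus 0.1, RLE in place of TMM, 1 CPM in 3 libraries or none in place of the filter, a joint fit of the 9 libraries, a replicate block, a fold change limit of 1.3, a correction for GC content (lowess span 0.3, as an offset) and each library left out. The GC correction on SPM replicates 1 and 3 only was added after the data were examined. Replicate numbers did not pair the libraries, as residuals of libraries of the same number correlated between -0.0746 and 0.205. Total counts were 29901300 or more a library, and the tested members with the fewest reads were Txnrd2 (24 to 315) and Gclm (199 to 521). Figures were drawn with matplotlib 3.10.9 in Python 3.11.15.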

Additional observations from a re-analysis of the deposited data

How the results depend on the processing

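No member that changed reversed its direction under the alternatives run. For the changed members (main counts 12 in DCM compared to CK, 11 in SPM compared to DCM and 15 in SPM compared to CK) the counts without single libraries ranged from 5 to 11, from 1 to 14 and from 4 to 16. In SPM compared to DCM, 17 changed by DESeq2, 4 with the GC correction, 5 with the replicate block and GC correction, and 0 on SPM replicates 1 and 3 with the GC correction (edgeR), where 5 changed in SPM compared to CK. Shares of all genes called were counted for edgeR's main fits and those without SPM replicate 2 only. The counts of members in the other fits stand without such a share. For members called DEGs (main counts 1, 2 and 4) the counts without single libraries ranged from 0 to 2, from 1 to 2 and from 2 to 4. In DCM compared to CK, DESeq2 and limma called 0, and a fold change limit of 1.3 gave 8. In SPM compared to DCM, 1 remained in number with the filter of 1 CPM, with the GC correction and with the replicate block and GC correction, and 0 on SPM replicates 1 and 3 with the GC correction. In SPM compared to CK, 2 were called by limma, with the GC correction and with the replicate block and GC correction, and 1 on SPM replicates 1 and 3 with the GC correction. The replicate block alone gave 10, 13 and 13 changed members and 1, 2 and 3 DEGs in the order of the comparisons above, and the replicate numbers mark no known pairing. The causes of these differences were not tested, except that leaving out a library leaves fewer samples. At the depth of these libraries Gsta3, Gstp1 and Gss, with 0 to 24 reads, did not pass the filter of the main fits, and no change was read from them. Without SPM replicate 2, 11 transferases passed the filter, beside 10 in the main fits.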
